A study of Homo sapiens with 12 samples.

Results

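The BCL2 family sets whether a cell commits to apoptosis at its mitochondria. Transcripts of 10 of its genes were followed here: BCL2, BCL2L1, MCL1, BAX, BAK1, BID, BIK, BMF, PMAIP1 and BCL2L11. They were chosen by name and looked up by gene symbol among the 61044 gene IDs of the count table, and all 10 were found. The cells were SCC-15, an established line from an oral squamous cell carcinoma. The NC group carried a negative-control short hairpin RNA (shRNA). The groups shRNA1, shRNA2 and shRNA3 each carried a different hairpin against FMOD, which encodes the matrix proteoglycan fibromodulin. All were harvested after 48 h, each group had 3 libraries (12 in all), and the question of the study was which genes change on depletion of FMOD. All groups are the same cell line, and nothing in the labels says that the 3 libraries of a group came from separate cultures, so the p-values measure the spread between these libraries, which may be technical.

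The family acts through protein contacts at the outer mitochondrial membrane. Pro-survival members (BCL2, BCL-XL from BCL2L1, and MCL1) hold the effectors BAX and BAK1 in check, and BAX and BAK1 form the pores that release cytochrome c. BH3-only proteins (here BID, BIK, BMF, NOXA from PMAIP1, and BIM from BCL2L11) bind pro-survival members or engage the effectors directly, each with its own set of partners. Many epithelial tumours depend on MCL1 or BCL-XL for survival. Much of the family is controlled after transcription, by protein turnover, cleavage and phosphorylation, which transcript counts do not measure. In bulk RNA such as this, fewer cells of a type and less RNA per cell cannot be told apart.

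The libraries held 17287017 to 19567289 estimated counts each. FMOD had 2, 2 and 3 counts in the NC libraries and 0 in all 9 hairpin libraries, which leaves every library within the floor of 3 counts. No fold change can be given, and FMOD does not check the labels at this depth. The correlation of log2(CPM + 1) between NC and hairpin libraries was 0.829 to 0.855 (CPM, library-scaled counts with TMM factors, which equalise the bulk of genes between libraries). Libraries 1 and 2 of shRNA3 stood apart from the other hairpin libraries. They correlated at 0.995 with each other and at 0.916 to 0.919 with shRNA3 library 3, whereas library 3 correlated at 0.979 to 0.988 with the shRNA1 and shRNA2 libraries. The TMM factors of libraries 1 and 2 were 0.771 and 0.795, against 0.979 to 1.11 in the other 10. Results of the 10 members for shRNA3 are therefore given with all 3 libraries and also with library 3 alone, which is then assumed to vary like the other groups. For other named genes the library sets are given in part, so a single shRNA3 value below can also depend on them. All 12 markers of oral squamous epithelium reached 10 counts in every NC and shRNA3 library, and 11 of 12 in every shRNA1 and shRNA2 library. Within that list the levels moved in both directions: KRT5, a basal keratin, averaged 1008 ± 42.4 CPM (SD, n = 3) in NC and 21.4 to 80.1 CPM in the hairpin groups, while KRT17 averaged 312 ± 32.1 CPM in NC and 571 to 748 CPM in the hairpin groups. Summed squamous markers were 2386 to 2580 CPM in NC, 1605 to 2005 CPM in shRNA1, 1809 to 1878 CPM in shRNA2 and 1604 to 2769 CPM in shRNA3. The 10 fibroblast markers summed to 56.8 to 59.9 CPM in NC, 15.6 to 21.8 CPM in shRNA1, 44.2 to 48.2 CPM in shRNA2 and 33.1 to 86.6 CPM in shRNA3, with DCN, THY1 and POSTN at 0 in NC. The 10 leukocyte markers summed to 60.3 to 78.8, 45.3 to 98.3, 82.1 to 88.7 and 110 to 237 CPM in the same order, most of it CD68, with PTPRC and MS4A1 among those at 0 in NC. The part of these marker levels in the results below was not tested.

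The promoters of 3 members are printed because their transcripts behaved differently: in the fit of all 12 libraries BMF fell and BID rose with every hairpin, and PMAIP1 was called higher with shRNA1 and shRNA3 and not with shRNA2. Each stretch is the 250 bases before an annotated transcript start, 5′ to 3′ in the direction of the gene, from RefSeq on GRCh38.p14. Capitals mark matches, on either strand, to TGACG (the core of the cyclic AMP response element, CGTCA on the other strand), GGGCGG (a GC box, CCGCCC on the other strand) and CACGTG (an E-box, the same on both strands). BMF is at chr15:40108880-40109129 on the minus strand, BID at chr22:17774470-17774719 on the minus strand, and PMAIP1 at chr18:59899746-59899995 on the plus strand.
BMF: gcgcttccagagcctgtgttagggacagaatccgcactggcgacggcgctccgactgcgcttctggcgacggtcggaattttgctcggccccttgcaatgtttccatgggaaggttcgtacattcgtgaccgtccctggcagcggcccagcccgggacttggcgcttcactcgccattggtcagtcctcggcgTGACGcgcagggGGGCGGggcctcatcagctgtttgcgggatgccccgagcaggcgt
BID: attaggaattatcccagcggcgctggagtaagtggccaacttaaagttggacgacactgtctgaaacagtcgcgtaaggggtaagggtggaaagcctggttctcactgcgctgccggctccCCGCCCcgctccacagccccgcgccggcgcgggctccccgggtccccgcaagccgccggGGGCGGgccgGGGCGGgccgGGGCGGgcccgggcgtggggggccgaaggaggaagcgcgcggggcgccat
PMAIP1: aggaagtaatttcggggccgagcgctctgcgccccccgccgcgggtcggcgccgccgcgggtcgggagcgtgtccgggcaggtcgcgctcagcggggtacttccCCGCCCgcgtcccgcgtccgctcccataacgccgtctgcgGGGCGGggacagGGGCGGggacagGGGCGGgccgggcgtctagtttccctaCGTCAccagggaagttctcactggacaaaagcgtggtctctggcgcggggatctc

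For BMF and BID, which have several annotated starts, only the first listed is printed. The printed BMF and PMAIP1 stretches each hold 1 TGACG match near the start, with 1 GC box in BMF and 4 in PMAIP1. The other BMF stretch (chr15:40106967-40107216) holds no match to any of the 3 motifs. The printed BID stretch holds 4 GC boxes and no TGACG, and the other BID stretches hold 0 to 4 GC boxes. The table of promoters had an entry for 8 of the 10 members, with 14 transcript starts among them, and none was found for MCL1 and BIK. Of the 14 stretches, 5 hold TGACG (BMF, PMAIP1, BCL2, BAX and BCL2L1), 9 hold GGGCGG, and 3 hold CACGTG. The BAX stretch alone has 4 CACGTG matches, and 1 of them overlaps its TGACG match. Several of the BID starts overlap, so their matches are partly the same bases. Among all 35116 promoter stretches of this length, 21.2% hold TGACG, 42.6% hold GGGCGG and 6.34% hold CACGTG. These matches describe letters only. GC content ran from 47.6% to 78% over the 14 stretches.

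Levels of different genes were compared per kilobase of exon, as RPKM (TMM-scaled CPM divided by the length of all annotated exons of the gene, in kilobases). In NC the order of mean RPKM was BCL2L1 (75.5 ± 3.14, SD, n = 3), MCL1 (59 ± 1.15), BAK1 (27.1 ± 1.1), BAX (16.5 ± 1.03), PMAIP1 (14.8 ± 0.804), BID (10.7 ± 0.598), BIK (8.38 ± 0.327), BCL2L11 (3.9 ± 0.289), BMF (3.44 ± 0.274) and BCL2 (0.285 ± 0.0633). No neighbours in that order overlapped in their 3 libraries. BCL2, the founding member of the family, was thus the least abundant of the 10 per length in these cells, and BCL2L1 and MCL1 the most abundant. The leading pair changed places with shRNA2: its mean RPKM was 98.9 ± 6.1 for MCL1 and 46.1 ± 0.904 for BCL2L1, and the ratio of MCL1 to BCL2L1 was 2.01, 2.35 and 2.08 in its libraries against 0.733, 0.791 and 0.825 in NC. The ratio was 0.971, 1.15 and 1.54 in shRNA1 and 1.47, 1.57 and 1.83 in shRNA3. All 9 hairpin libraries lay above all 3 NC libraries in this ratio of levels, shRNA3 library 3 included. MCL1 by itself separated the same libraries upward, as did 19% of all tested genes, and no share was computed for such ratios. At the lower end, BMF and BCL2 overlapped in shRNA1 and in shRNA2, where BMF averaged 0.793 ± 0.378 and 0.422 ± 0.087 RPKM.

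**Figure D1:**
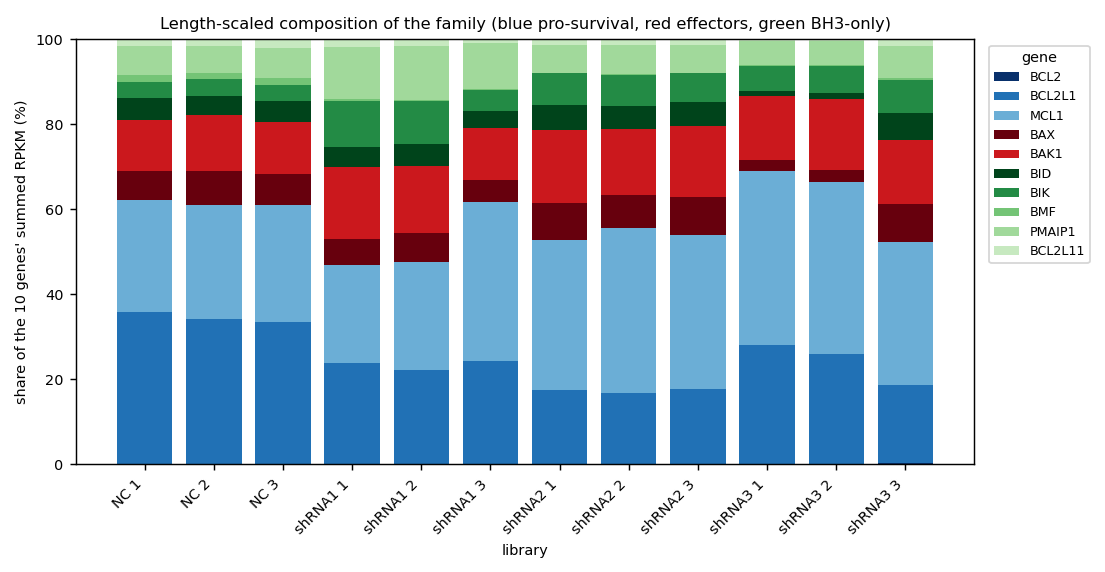
Share of each of the 10 genes (percent, stacked from 0 to 100) in their summed RPKM, for each of the 12 libraries. The 3 pro-survival genes held 61% to 62.1% in NC and 53% to 55.6% in shRNA2, and the MCL1 share exceeds the BCL2L1 share in 8 of 9 hairpin libraries and in no NC library.

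The summed RPKM of the 10 genes was 219 to 221 in NC, 315 to 355 in shRNA1 and 265 to 272 in shRNA2. In shRNA3 it was 1127 and 1055 in libraries 1 and 2 and 243 in library 3. The pro-survival genes took 61% to 62.1% of that sum in NC, 53% to 55.6% in shRNA2, 46.9%, 47.6% and 61.6% in shRNA1, and 69.1%, 66.5% and 52.3% in shRNA3. In shRNA1 library 3, MCL1 alone made up 37.3% of the sum, against 23% and 25.4% in libraries 1 and 2. These shares weigh transcripts per length and say nothing of protein.

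Each hairpin was compared with NC by edgeR's quasi-likelihood test in 1 fit of all 12 libraries, with Benjamini-Hochberg adjustment over the 17532 genes that passed a filter on low counts. All 10 members passed that filter, and a change was called at an adjusted p under 0.05. With shRNA1, 4 of 10 members were called (3 higher, 1 lower), where 57.4% of all tested genes were called (26.8% higher, 30.6% lower). With shRNA2 it was 4 of 10 (3 higher, 1 lower) against 53% of all genes (24.6% and 28.4%). With shRNA3 it was 8 of 10 (7 higher, 1 lower) against 53.9% (26.4% and 27.6%). The median log2 fold change of the members was 0.58, 0.36 and 1.06 for shRNA1, shRNA2 and shRNA3, and that of all tested genes was -0.02, -0.05 and -0.03. With the mean of the 3 hairpins, 7 of 10 members were called (6 higher, 1 lower) against 60% of all genes (27.9% and 32.2%). The same 7 genes separated all 9 hairpin libraries from NC, 6 above and 1 below, as did 19% and 25.8% of all genes. BID, BIK and BMF were called in the same direction with all 3 hairpins, 3 of 10 (2 higher, 1 lower) where 35.7% of all genes were (16% and 19.7%). The counts for shRNA1 and shRNA2 depended on the shRNA3 libraries in the fit: without shRNA3 library 3, 8 of 10 members were called for each, where 73.1% and 70.2% of all genes were. All comparisons with NC share the same 3 NC libraries.

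**Figure D2:**
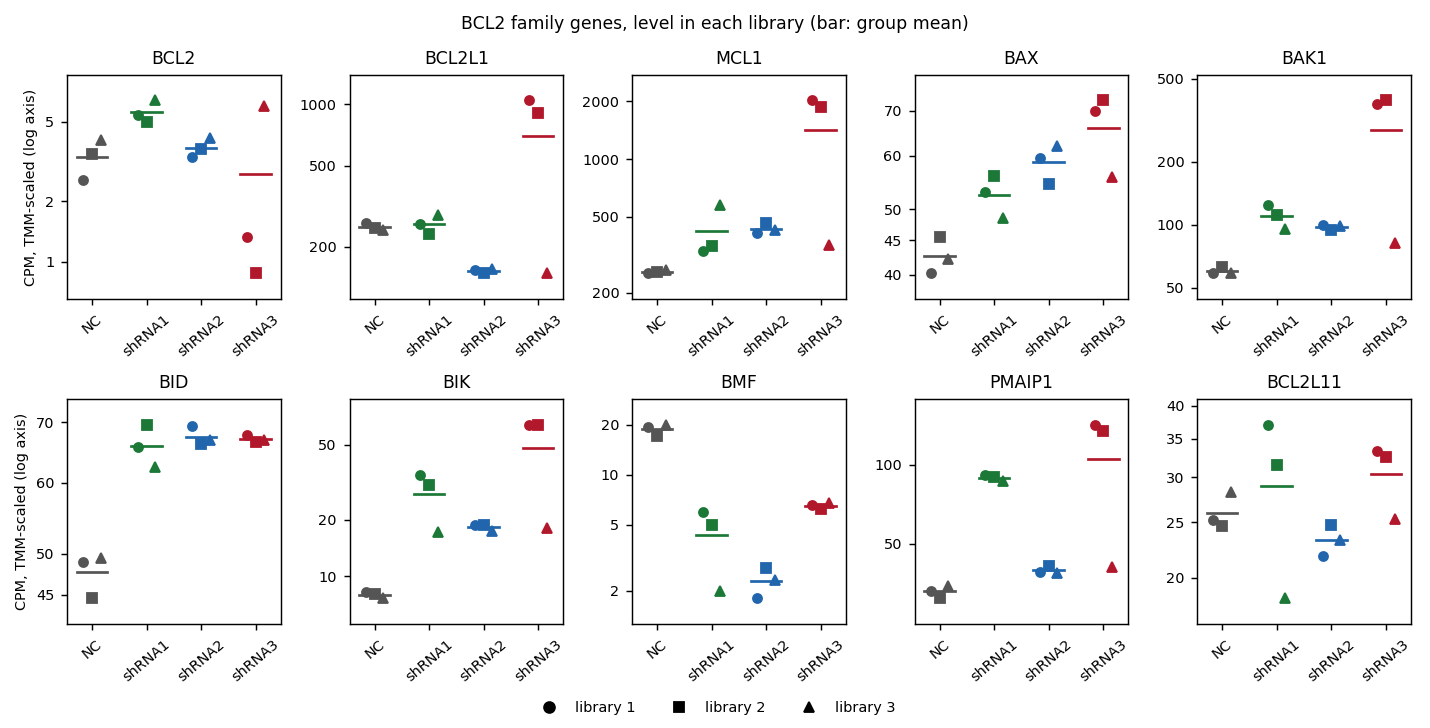
TMM-scaled CPM (log axis) of the 10 genes in each library, grouped as NC, shRNA1, shRNA2 and shRNA3; the symbol gives the library number and the bar the group mean. MCL1, BAX, BAK1, BID, BIK, BMF and PMAIP1 separate every hairpin library from NC. For BCL2L1, MCL1, BAK1, BIK and PMAIP1 the shRNA3 libraries 1 and 2 lie far above library 3.

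The pro-survival genes came first by role. MCL1 (ENSG00000143384, chromosome 1, 150574551 to 150579738, minus strand, GRCh38), a short-lived protein that restrains BAK1 and binds most BH3-only proteins, had 253, 258 and 263 CPM in NC. It had 331, 350 and 578 CPM in shRNA1, 410, 462 and 425 CPM in shRNA2, and 2024, 1874 and 357 CPM in shRNA3. Every hairpin library lay above every NC library. MCL1 rose with shRNA3 by 2.46 ± 0.49 on the log2 scale (SE), or 5.5-fold (adjusted p = 0.00143). For shRNA1 and shRNA2 the log2 differences of 0.70 ± 0.47 and 0.74 ± 0.47 did not pass (adjusted p = 0.222 and 0.206). The shRNA3 call rested on libraries 1 and 2: library 3 alone gave 0.50 ± 0.24 (adjusted p = 0.0931). In that fit the SE for shRNA1 and shRNA2 was 0.17, and both changes of MCL1 passed, 0.72 (adjusted p = 0.00302) and 0.76 (adjusted p = 0.00217). The MCL1 exons overlap those of ADAMTSL4-AS1 on the same strand, so reads of the overlap cannot be assigned to either.

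BCL2L1 (ENSG00000171552, chromosome 20, 31664452 to 31723989, minus strand), whose long isoform is BCL-XL and whose short isoform promotes apoptosis, was counted as a single gene. Its CPM were 262, 247 and 242 in NC, 259, 230 and 285 in shRNA1, 154, 149 and 155 in shRNA2, and 1046, 905 and 148 in shRNA3. The shRNA2 libraries and shRNA3 library 3 lay below NC, the shRNA1 libraries overlapped NC, and shRNA3 libraries 1 and 2 lay far above it. With all 3 libraries the shRNA3 difference was 1.48 ± 0.49 on the log2 scale (2.8-fold, adjusted p = 0.0238), and with library 3 alone its sign turned, to -0.73 ± 0.13 (adjusted p = 0.000399). The call of BCL2L1 from all libraries was also lost without any 1 NC library and without shRNA3 library 1 or 2 (adjusted p from 0.0601 to 0.0798). In edgeR it was lost as well by library totals (1.02, adjusted p = 0.0623) and with no filter on low counts (adjusted p = 0.0722). With only the libraries of the 2 groups compared, the adjusted p was 0.103. The shRNA2 difference was -0.71 ± 0.48 (adjusted p = 0.238) in the fit of all libraries and -0.70 ± 0.09 (adjusted p = 1.37e-05) without the shRNA3 libraries 1 and 2. For shRNA1 the log2 difference was 0.04 ± 0.48 (adjusted p = 0.945). ABALON lies on the other strand over BCL2L1 exons, and whether counting kept the strands apart is not given in the sources used here.

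BCL2 (ENSG00000171791, chromosome 18, 63123346 to 63320128, minus strand) was low throughout. It had 2.57, 3.44 and 4.05 CPM in NC, 5.42, 4.98 and 6.39 in shRNA1, 3.33, 3.66 and 4.15 in shRNA2, and 1.33, 0.874 and 6 in shRNA3. The shRNA1 libraries were all above NC, and shRNA3 had its lowest values in libraries 1 and 2 and its highest in library 3. No hairpin passed against NC in the fit of all libraries, with log2 differences of 0.74 ± 0.54, 0.15 ± 0.55 and -0.26 ± 0.55 (adjusted p = 0.268, 0.842 and 0.708). The shRNA3 value depended on its libraries in sign: it was -1.60 ± 0.32 (adjusted p = 0.000347) from libraries 1 and 2 and 0.87 ± 0.29 (adjusted p = 0.0231) from library 3. Thus in shRNA3 libraries 1 and 2, BCL2 was lower than in NC where BCL2L1 and MCL1 were higher. By edgeR none of the 3 pro-survival genes was called for shRNA1 or shRNA2 in the fit of all libraries. At an unadjusted p under 0.05 the count was also 0, as it was by DESeq2 after adjustment. Those tests all held the split shRNA3 libraries. In edgeR without shRNA3 library 3, BCL2 was called for shRNA1 (0.74 ± 0.23, adjusted p = 0.00865) and not for shRNA2 (adjusted p = 0.561). MCL1 was then called for both (adjusted p = 0.00194 and 0.00135), and BCL2L1 for shRNA2 only (adjusted p = 6.83e-06).

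The effectors BAX and BAK1 were higher in all 9 hairpin libraries than in any NC library. BAX (ENSG00000087088, chromosome 19, 48954815 to 48961798, plus strand) had 40.2, 45.5 and 42.2 CPM in NC, 53, 56.1 and 48.6 in shRNA1, 59.6, 54.5 and 62.1 in shRNA2, and 69.9, 72.5 and 55.9 in shRNA3. It rose with shRNA2 by 0.46 ± 0.14 (1.38-fold, adjusted p = 0.0132) and with shRNA3 by 0.63 ± 0.14 (1.55-fold, adjusted p = 0.00221). The shRNA1 difference of 0.30 ± 0.14 missed the threshold in the fit of all libraries (adjusted p = 0.0749). Without shRNA3 library 3 it was called, at 0.31 ± 0.09 (adjusted p = 0.00796). These changes were among the smallest called for any member. BAX rose with shRNA3 library 3 alone as well, by 0.42 ± 0.14 (adjusted p = 0.0184). The shRNA2 call was lost without NC library 1 (adjusted p = 0.0518). When counts were scaled by library totals only, the shRNA3 difference was 0.28 (adjusted p = 0.0893).

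BAK1 (ENSG00000030110, chromosome 6, 33572547 to 33580293, minus strand), the effector that sits in the mitochondrial membrane of healthy cells, had 58.4, 62.8 and 58.7 CPM in NC. It had 124, 111 and 95.7 CPM in shRNA1, 100, 93.9 and 98.3 CPM in shRNA2, and 377, 393 and 81.4 CPM in shRNA3. BAK1 rose with shRNA3 by 2.24 ± 0.43, or 4.73-fold (adjusted p = 0.0011), and by 0.47 ± 0.14 or 1.38-fold with library 3 alone (adjusted p = 0.0106). For shRNA1 and shRNA2 the log2 differences were 0.88 ± 0.42 and 0.70 ± 0.42 (adjusted p = 0.0921 and 0.178), although no library overlapped NC. Without the shRNA3 libraries 1 and 2 they were 0.89 ± 0.10 (adjusted p = 3.47e-06) and 0.72 ± 0.10 (adjusted p = 2.86e-05). GGNBP1 overlaps BAK1 on the opposite strand.

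**Figure D3:**
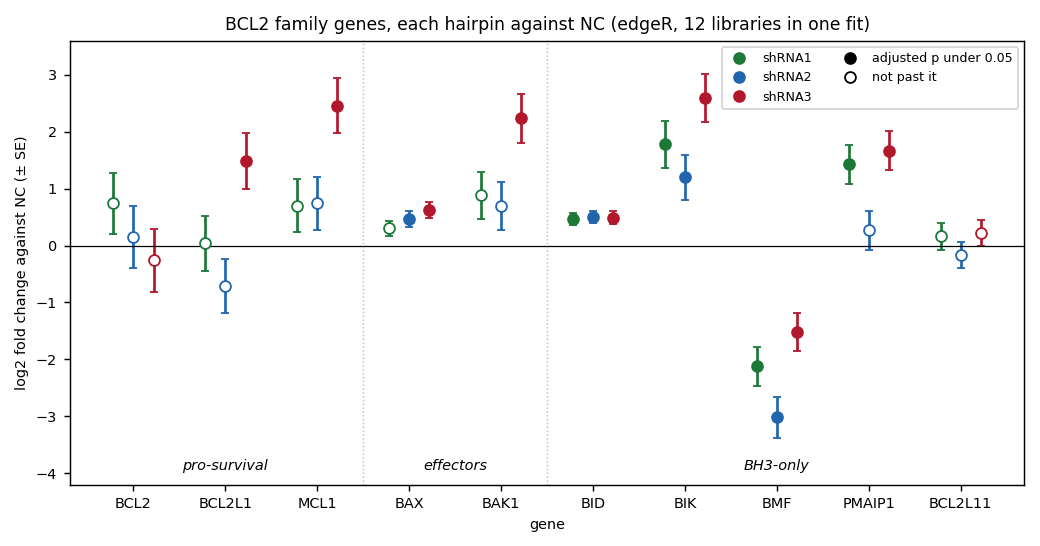
Log2 fold change against NC (points, with SE bars) of the 10 genes for shRNA1, shRNA2 and shRNA3, in the fit of all 12 libraries; filled points passed an adjusted p of 0.05. BMF lies below 0 with every hairpin, from -3.02 to -1.52, and BIK above 0, from 1.20 to 2.59, while BID has nearly the same value, 0.47 to 0.50, with all 3.

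The BH3-only genes moved in different directions. BMF (ENSG00000104081, chromosome 15, 40087890 to 40108892, minus strand), a BH3-only protein held at the cytoskeleton through dynein light chain and linked to loss of attachment, fell with every hairpin. Its CPM were 19.3, 17.1 and 19.9 in NC, 5.96, 4.98 and 2.01 in shRNA1, 1.81, 2.76 and 2.32 in shRNA2, and 6.59, 6.19 and 6.75 in shRNA3. The highest hairpin library held 6.75 CPM and the lowest NC library 17.1 CPM. The log2 fold changes were -2.12 ± 0.34 (4.33-fold lower, adjusted p = 0.000296) for shRNA1, -3.02 ± 0.36 (8.13-fold lower, adjusted p = 3.39e-05) for shRNA2 and -1.52 ± 0.33 (2.88-fold lower, adjusted p = 0.00249) for shRNA3. The 3 shRNA3 libraries had an SD of 0.289 CPM here, and library 3 alone gave -1.44 ± 0.43 (adjusted p = 0.0125). BMF had the largest mean size of change among the members, 2.22 on the log2 scale. The genes whose log2(CPM + 1) followed it most closely over the 12 libraries included PICK1 (Pearson r = 0.9728) and RASGRP2 (r = 0.9681). NC lies far from the hairpin libraries in BMF, and the 12 points fall into those separate groups. BMF-AS1 overlaps BMF on the opposite strand.

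BIK (ENSG00000100290, chromosome 22, 43110748 to 43129712, plus strand), a BH3-only protein anchored mainly at the endoplasmic reticulum, rose with every hairpin. It had 8.27, 8.02 and 7.65 CPM in NC, 34.4, 30.5 and 17.2 in shRNA1, 18.8, 18.7 and 17.3 in shRNA2, and 63.3, 63.2 and 18.1 in shRNA3. The lowest hairpin library, at 17.2 CPM, was above the highest NC library, at 8.27 CPM. The log2 fold changes were 1.78 ± 0.41 (3.43-fold, adjusted p = 0.00305), 1.20 ± 0.40 (2.29-fold, adjusted p = 0.0263) and 2.59 ± 0.42 (6.03-fold, adjusted p = 0.000332) for shRNA1, shRNA2 and shRNA3. With shRNA3 library 3 alone BIK was 2.31-fold higher (1.21 ± 0.28, adjusted p = 0.00246). The shRNA2 call was lost without any 1 of the NC libraries, or without shRNA2 library 1 or 2 (adjusted p from 0.0564 to 0.0741 in these fits).

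BID (ENSG00000015475, chromosome 22, 17734138 to 17774770, minus strand), which caspase-8 cleaves to link death receptors to mitochondria, rose by a small and even amount. It had 48.9, 44.6 and 49.5 CPM in NC, 65.8, 69.5 and 62.5 in shRNA1, 69.3, 66.2 and 66.9 in shRNA2, and 67.8, 66.6 and 67 in shRNA3. The shRNA3 libraries did not split in this gene, with a ratio of libraries 1 and 2 to library 3 of 1. The log2 fold changes were 0.47 ± 0.11, 0.50 ± 0.11 and 0.49 ± 0.11 (1.38-, 1.41- and 1.41-fold, adjusted p = 0.00312, 0.0022 and 0.00241). With shRNA3 library 3 alone the change of BID was 0.52. The amount depended on the scaling. By library totals without a TMM factor the shRNA2 and shRNA3 changes of BID were 0.37 (adjusted p = 0.0519) and 0.16 (adjusted p = 0.366), and in that scaling the median of all genes shifted by -0.13 and -0.32. BID lay above the median gene in both scalings.

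PMAIP1 (ENSG00000141682, chromosome 18, 59899948 to 59904306, plus strand) encodes NOXA, a BH3-only protein that binds MCL1 and promotes its degradation. Its CPM were 33.2, 31.1 and 34.7 in NC, 90.9, 89.7 and 86.9 in shRNA1, 39.2, 41.3 and 38.6 in shRNA2, and 141, 134 and 40.7 in shRNA3. The libraries fell into a low range (NC, shRNA2 and shRNA3 library 3, up to 41.3 CPM) and a high range (shRNA1 and shRNA3 libraries 1 and 2, from 86.9 CPM). PMAIP1 rose with shRNA1 by 1.43 ± 0.34 (2.7-fold, adjusted p = 0.00393) and with shRNA3 by 1.67 ± 0.34 (3.19-fold, adjusted p = 0.0017). The shRNA2 difference was 0.27 ± 0.34 (adjusted p = 0.532). With shRNA3 library 3 alone the change was 0.33 ± 0.12 (1.26-fold, adjusted p = 0.0358), and in that fit shRNA2 gave 0.28 ± 0.09 (adjusted p = 0.0131). The difference between shRNA1 and shRNA2 in PMAIP1 was itself called, at 1.17 ± 0.34 (2.25-fold, adjusted p = 0.0459). That call was lost in 11 of 20 alternatives, among them leaving out any 1 library of NC, shRNA1 or shRNA2 (adjusted p from 0.07 to 0.151), while the log2 difference stayed between 1.14 and 1.22 in all 20.

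BCL2L11 (ENSG00000153094, chromosome 2, 111119378 to 111168447, plus strand) encodes BIM, which binds all pro-survival members and can activate BAX and BAK1. It had 25.2, 24.6 and 28.2 CPM in NC, 37, 31.5 and 18.4 in shRNA1, 21.8, 24.7 and 23.3 in shRNA2, and 33.3, 32.5 and 25.3 in shRNA3. Every hairpin group overlapped NC. No comparison with NC passed, with log2 differences of 0.16 ± 0.23, -0.16 ± 0.23 and 0.22 ± 0.23 (adjusted p = 0.582, 0.586 and 0.432). With shRNA3 library 3 alone the difference of BCL2L11 was -0.01. Within shRNA1, library 3 stood at 0.538 of the mean of libraries 1 and 2, and the same library was at 0.531 of it in BIK, 0.367 in BMF and 1.7 in MCL1. BCL2L11 overlaps MIR4435-2HG on the opposite strand.

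**Figure D4:**
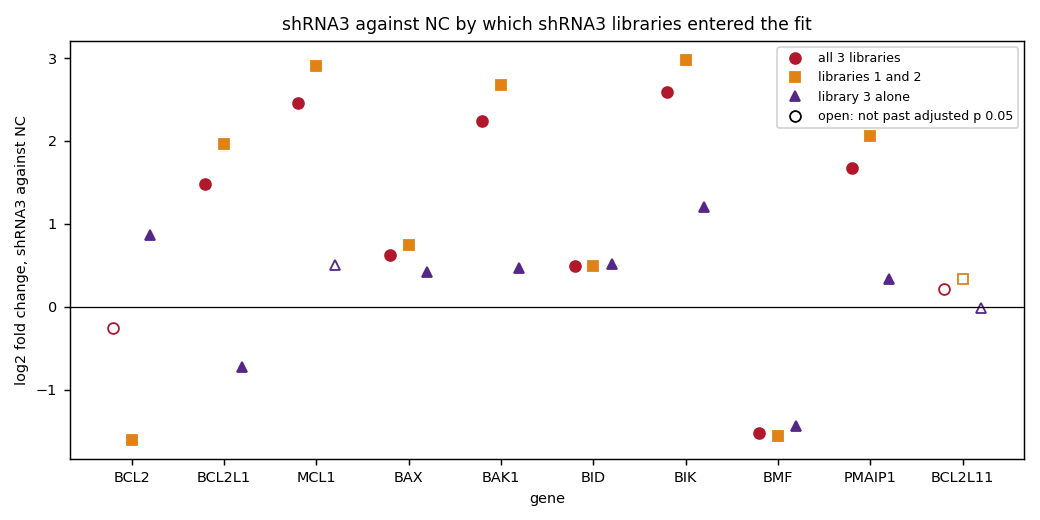
Log2 fold change against NC of the 10 genes for shRNA3 from all 3 libraries (circles), libraries 1 and 2 (squares) and library 3 alone (triangles); open symbols did not pass an adjusted p of 0.05. BID and BMF hold their values, MCL1, BAK1, BIK and PMAIP1 shrink with library 3 alone, and BCL2L1 and BCL2 change sign.

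Within shRNA3, the members divided by how far libraries 1 and 2 lay from library 3. The ratio of their mean CPM to that of library 3 was 6.59 for BCL2L1, 5.45 for MCL1, 4.73 for BAK1, 3.49 for BIK and 3.38 for PMAIP1. It was 1.3 for BCL2L11, 1.27 for BAX, 1 for BID, 0.947 for BMF and 0.184 for BCL2. With library totals in place of TMM scaling, the ratios of the first 5 were 4.85, 4.01, 3.49, 2.57 and 2.49. Genes of all 3 roles were among those 5. With library 3 alone, 8 of 10 members were called against NC, where 56.9% of all 19093 genes tested in that fit were called, but BCL2L1 was then lower and BCL2 higher. Leaving these libraries out also raised the counts for the other hairpins, to 8 of 10 for shRNA1 (7 higher, 1 lower; 71.3% of all genes) and 8 of 10 for shRNA2 (6 higher, 2 lower; 68.1% of all genes).

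The hairpins were also compared with each other. Between shRNA1 and shRNA2, 1 of 10 members was called (PMAIP1, higher in shRNA1), against 12.3% of all genes (5.78% higher). Between shRNA1 and shRNA3, 3 of 10 were called, all lower in shRNA1 (BAK1, BCL2L1 and MCL1), against 30% of all genes (18.1% lower). Between shRNA2 and shRNA3, 4 of 10 were called, all lower in shRNA2 (BAK1, BCL2L1, BMF and PMAIP1), against 8.34% of all genes (6.43% lower). Each of these 8 calls between hairpins was lost, with its sign kept, in 6 to 15 of 20 alternatives. The largest was BCL2L1, at -2.20 ± 0.50 (4.58-fold lower in shRNA2, adjusted p = 0.0349). With shRNA3 library 3 alone, edgeR called none of the 10 between shRNA2 and shRNA3 (2 at an unadjusted p under 0.05; DESeq2 on all libraries called 6). Of these 4, BMF had no overlap of libraries, which held in this direction for 13.1% of all genes: all 3 shRNA3 libraries, from 6.19 CPM, were above the highest shRNA2 library, at 2.76 CPM (log2 difference -1.50 ± 0.35, adjusted p = 0.0354, and 0.0897 with library 3 alone).

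Of 13 other genes of the family, 10 passed the filter, and BCL2L10, BCL2L14 and BCL2L15 did not. For shRNA1, shRNA2 and shRNA3 respectively, 1, 1 and 2 were higher and 5, 6 and 5 lower than in NC. That was 60%, 70% and 70% called, where 57.4%, 53% and 53.9% of all tested genes were. Of all tested genes, 26.8%, 24.6% and 26.4% were higher and 30.6%, 28.4% and 27.6% lower. HRK, a BH3-only gene best known in neurons, had 0 to 3 counts in the NC libraries and averaged 2.66 ± 0.669, 6.19 ± 0.728 and 5.33 ± 1.55 CPM with the hairpins. It was at least 17.7-, 41.2- and 35.4-fold higher, against a floor of 3 counts per library. BAD, a BH3-only protein silenced by phosphorylation under growth factor signalling, fell from 95.8 ± 8.76 CPM to 43.3 ± 2.19, 40.5 ± 1.56 and 43.3 ± 6.65 CPM (2.21-, 2.36- and 2.21-fold lower, adjusted p = 3.66e-05, 2.2e-05 and 4.07e-05). BAD overlaps GPR137 on the opposite strand. BCL2A1, a pro-survival gene induced by NF-kappaB, was low in NC (0.719 ± 0.131 CPM) and at least 4.8-, 4.22- and 3.66-fold lower with the hairpins. BNIP3L, a mitophagy receptor with a BH3-like stretch, was 2.95-, 3.78- and 1.88-fold lower. For shRNA3 the log2 change of BNIP3L was -1.90 ± 0.16 with library 3 alone (adjusted p = 6.92e-07) and -0.58 ± 0.11 from libraries 1 and 2 (adjusted p = 0.000258).

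The remaining roles were filled by 3 genes that did not move alike. BBC3, which encodes the BH3-only protein PUMA, had 18.4, 16.2 and 14.5 CPM in NC and 156, 157 and 28.9 CPM in shRNA3. It rose with shRNA3 by 2.80 ± 0.48 (6.95-fold, adjusted p = 0.00052) and with library 3 alone by 0.85 ± 0.19 (adjusted p = 0.00191), while shRNA1 and shRNA2 gave -0.19 ± 0.46 and 0.21 ± 0.46 (adjusted p = 0.749 and 0.724). BCL2L2, which encodes the pro-survival BCL-W, fell with shRNA1 and shRNA2 by 1.48 and 1.18 on the log2 scale (adjusted p = 0.0063 and 0.0213). Its shRNA3 difference was -0.23 ± 0.37 (adjusted p = 0.625) from all libraries and -1.37 ± 0.37 (adjusted p = 0.00745) from library 3 alone. BCL2L2 shares exons on the same strand with the readthrough gene BCL2L2-PABPN1, so its counts are uncertain. BOK, an effector-like member, did not pass with any hairpin in the fit of all libraries (log2 differences of -0.32, -0.24 and -0.36, adjusted p = 0.113, 0.238 and 0.0791). From shRNA3 libraries 1 and 2 without library 3, BOK was called lower, at -0.47 ± 0.14 (adjusted p = 0.00871).

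**Figure D5:**
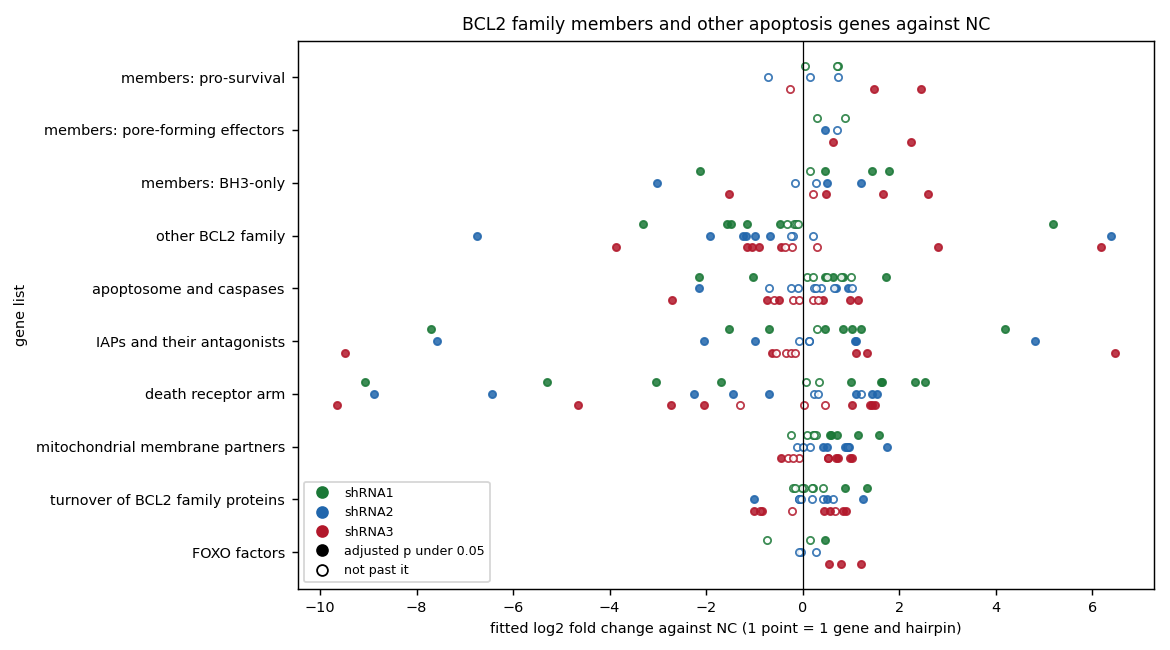
Fitted log2 fold change against NC of the members, by role, and of the other apoptosis gene lists, 1 point per gene and hairpin; filled points passed an adjusted p of 0.05. Points lie on both sides of 0 in nearly every list, and the mitochondrial membrane partners lie mostly above it.

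Around the family, the apoptosis machinery also held genes of both directions. Of 11 genes of the apoptosome and caspases, 4, 2 and 3 were higher and 2, 1 and 3 lower for shRNA1, shRNA2 and shRNA3. That was 54.5%, 27.3% and 54.5% called, where 57.4%, 53% and 53.9% of all tested genes were. APAF1, the scaffold on which cytochrome c activates caspase-9, rose 1.55-, 1.61- and 1.34-fold, but the shRNA3 change did not pass with library 3 alone (0.45 ± 0.19, adjusted p = 0.0573). CASP10 was 4.44-, 4.42- and 6.48-fold lower, and its log2 change for shRNA3 was -1.89 ± 0.32 with library 3 alone and -3.39 ± 0.28 from libraries 1 and 2. Of 9 inhibitor of apoptosis genes and their antagonists, 5, 3 and 3 were higher and 3, 3 and 2 lower. Their called shares were 88.9%, 66.7% and 55.6%, against the same shares of all tested genes. XIAP, which blocks caspases directly, rose from 36.4 ± 2.6 CPM to 83.7 ± 2.1, 77.2 ± 6.78 and 78.2 ± 8.11 CPM. BIRC5 (survivin) rose 2.05- to 2.51-fold and BIRC7 18.4- to 89.5-fold from 0.466 ± 0.2 CPM. The log2 change of BIRC5 for shRNA3 was 0.99 with library 3 alone and 1.48 from libraries 1 and 2. The upper end of the BIRC7 range rested on shRNA3 libraries 1 and 2, which gave a log2 change of 6.95 ± 0.22 against 4.34 ± 0.30 with library 3 alone (adjusted p = 9e-08), where its level was 9.38 CPM. XAF1, an antagonist of XIAP, was at least 32.7-, 28.8- and 24.9-fold lower, and BIRC2 was 1.61-, 1.99- and 1.56-fold lower.

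In the death receptor arm, which reaches the family through BID, 11 of 12 genes were tested. Of these, 5, 3 and 4 were higher and 4, 5 and 4 lower. That was 81.8%, 72.7% and 72.7% called, where 57.4%, 53% and 53.9% of all tested genes were. The receptors TNFRSF1A (3.07-, 2.9- and 2.81-fold), FAS (3.12-, 2.69- and 2.71-fold) and TNFRSF10A (5.78-, 2.15- and 2.03-fold) rose. The FAS change for shRNA3 was 1.92 on the log2 scale with library 3 alone and 1.13 from libraries 1 and 2. The shRNA3 call of TNFRSF10A rested on library 3, which alone gave 1.82 ± 0.22 (adjusted p = 1.64e-05), and was not called from libraries 1 and 2 (0.39 ± 0.19, adjusted p = 0.0795). The decoy receptor TNFRSF10D was at 39.2 ± 4.74 CPM in NC and had at most 4 counts in any hairpin library, and it was at least 230-fold lower with shRNA2 and at least 199-fold lower with shRNA3. The other decoy, TNFRSF10C, was at least 14.9-, 13.1- and 11.3-fold lower, and the ligand TNFSF10 (TRAIL) was 8.3-, 4.74- and 6.57-fold lower. For shRNA3 the log2 change of TNFSF10 was -2.09 ± 0.23 with library 3 alone and -3.17 ± 0.19 from libraries 1 and 2. Of 10 mitochondrial membrane partners, 5, 6 and 5 were higher and 0, 0 and 1 lower (50%, 60% and 60% called). They included VDAC3 (3.01-, 3.35- and 2.05-fold), VDAC1 (1.64-, 1.94- and 1.61-fold), channels of the outer membrane, and DNM1L (2.21-, 1.83- and 1.66-fold), the fission dynamin. The VDAC3 change for shRNA3 was 1.74 ± 0.18 on the log2 scale with library 3 alone and 0.51 ± 0.15 from libraries 1 and 2. For DNM1L these values were 1.02 and 0.57. The median log2 fold change of these 10 was 0.42, 0.68 and 0.53.

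Of 10 genes that control the turnover or tethering of family proteins, 9 were tested, with 2, 2 and 4 higher and 0, 1 and 2 lower. That was 22.2%, 33.3% and 66.7% called, where 57.4%, 53% and 53.9% of all tested genes were. DYNLL1, a dynein light chain, rose from 81.9 ± 7.45 CPM to 207 ± 16.1, 193 ± 7.7 and 146 ± 33.1 CPM. Its log2 change for shRNA3 was 1.20 with library 3 alone and 0.64 from libraries 1 and 2. DYNLL2, the other dynein light chain of the list, went the other way with shRNA3 (-0.84 ± 0.13, adjusted p = 0.000292 by edgeR). The dynein light chains thus did not move alike with shRNA3. CDKN1A, the cell cycle inhibitor p21, averaged 104 ± 4.84 CPM in NC, 162 ± 20 in shRNA1, 110 ± 3.57 in shRNA2 and 374 ± 177 in shRNA3. By edgeR it was called for shRNA3 (1.85 ± 0.30, adjusted p = 0.000381), with a log2 change of 0.77 from library 3 alone. In the fit of all libraries CDKN1A was not called for shRNA1 (adjusted p = 0.0845) or shRNA2 (adjusted p = 0.835). That fit held the split shRNA3 libraries. All 3 shRNA1 libraries, at 139 to 175 CPM, lay above the NC libraries, at 98.1 to 107 CPM. Of the 3 FOXO factors, which are known to act on BCL2L11 and BBC3, 1, 0 and 3 were higher and none lower by edgeR. Their called shares were 33.3%, 0% and 100%, against the same shares of all tested genes. With library 3 alone the shRNA3 log2 changes were 0.64 for FOXO1, 0.21 for FOXO3 and -0.15 for FOXO4. From all 3 libraries they were 0.54, 1.21 and 0.80, so the FOXO3 and FOXO4 rises rested on libraries 1 and 2. The shRNA3 counts of each apoptosis gene list outside the members also differed with library 3 alone. Those counts are not set out, since a single library has no spread of its own. The same limit holds for the library 3 calls of the members.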

How the data were processed

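RNA was sequenced from 12 SCC-15 libraries, 3 in each of 4 groups, prepared with the NEBNext Ultra kit per the labels' protocols. The authors made and deposited 1 table of estimated counts (expected counts) per gene, not normalized. Of its values, 13.8% are not whole. The submitters' processing notes name HISAT2, HTSeq 0.11.2 and GRCh38 without their roles; annotation, filters and use of strand are not given in the sources used here. Each of the 12 columns matched 1 sample title. Of the 61044 IDs, 380 are not Ensembl IDs.

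Counts were rounded, scaled by TMM and filtered with edgeR's filterByExpr (minimum count 10, minimum total 15), leaving 17532 genes. A single edgeR quasi-likelihood model (R 4.3.3, edgeR 4.0.16, robust, two-sided) covered the 4 groups, with 8 residual degrees of freedom and a common biological coefficient of variation of 0.289. Benjamini-Hochberg adjustment ran over all genes in the fit, and an adjusted p under 0.05 was called. The SE of a log2 fold change is its size over the square root of F. Folds against a group at or under 3 counts are lower bounds, which cover counting error only. The fit was run on simulated counts with a single dispersion and genes changed in a single group. That setting does not mimic the split of the shRNA3 libraries, so it does not test the fit for it. Replicates differed by more than sampling noise (chi-square per gene 3.61 to 240). Positions, exon lengths and overlaps are from GENCODE release 29.

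The 10 members and all lists were chosen with earlier results of these data known. Named besides the members are, per list, up to 3 rising and 3 falling genes called for all 3 hairpins with the largest smallest change, BBC3, BAD, BCL2L2, BCL2A1, BOK, CDKN1A, and the 3 genes most correlated with the member of largest change. Some genes that this rule names, and 1 list, are not reported here. Alternatives were other scalings, other filters, DESeq2 1.42.0, a replicate block, only the groups compared, stricter thresholds, each library left out, and shRNA3 libraries 1 and 2 left out together. Protein sequences were not used here.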

Additional observations from a re-analysis of the deposited data

Results flagged for a closer look

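Several members differed between hairpins in the edgeR test of the difference itself, on the log2 scale. BAK1 differed by -1.37 between shRNA1 and shRNA3 (adjusted p = 0.033) and by -1.54 between shRNA2 and shRNA3 (adjusted p = 0.0485). BCL2L1 differed by -1.44 (adjusted p = 0.0462) and -2.20 (adjusted p = 0.0349) in the same comparisons. MCL1 differed by -1.76 between shRNA1 and shRNA3 (adjusted p = 0.0218), and BMF by -1.50 between shRNA2 and shRNA3 (adjusted p = 0.0354). PMAIP1 was higher in shRNA1 than in shRNA2 by 1.17 (adjusted p = 0.0459) and lower in shRNA2 than in shRNA3 by a log2 difference of -1.41 (adjusted p = 0.0385). Except for BMF and the PMAIP1 difference between shRNA1 and shRNA2, the groups in these comparisons overlapped.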

How the results depend on the processing

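Over 1390 recomputed member changes, 1209 stayed on the same side of the threshold, 119 lost the call, 53 gained it and 9 reversed. Among the 1209, the sign differed in 41, where neither value passed. All 9 reversals came from leaving out shRNA3 libraries 1 and 2. Against NC, shRNA3 then gave 0.87 for BCL2 and -0.73 for BCL2L1, and the mean of the hairpins -0.46 for BCL2L1. Between shRNA1 and shRNA3 the values became 0.78 for BCL2L1, 0.22 for MCL1, 0.42 for BAK1 and 1.11 for PMAIP1. Between shRNA2 and shRNA3 they became 0.03 for BCL2L1 and 0.25 for BAK1. BMF kept its call against NC under every alternative scaling, filter, tool and set of libraries, for each hairpin.

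The number of called members moved as follows, by edgeR unless another tool is named. Shares of all genes are not given for the 0.01 threshold, the log2 threshold or unadjusted p-values. Member counts at those thresholds therefore cannot be set against all genes. With no filter, 4.25% of all genes were called between shRNA1 and shRNA2. For shRNA1 against NC (4) it was 8 with only the groups compared (71.8% of all genes called) and 8 without shRNA3 libraries 1 and 2 (71.3%). For shRNA2 against NC (4) it was 2 at an adjusted p under 0.01, 2 with a log2 change of at least 1, 8 with only the groups compared (79.2% of all genes) and 8 without those libraries (68.1%). For shRNA3 against NC (8, with 53.9% of all genes called) it was 5 by library totals, near the share of all genes (52.2%). Between shRNA1 and shRNA2 (1; 2 at an unadjusted p under 0.05) it was 0 at 0.01, 0 with no filter, 3 with only those groups (41% of all genes), 4 without those libraries (36.8%) and 2 by DESeq2 (19.8%). Between shRNA1 and shRNA3 (3; 4 unadjusted) it was 0 at 0.01, 1 by library totals (21.7% of all genes), 0 with no filter (11.8%) and 0 with only those groups (0 of 15326 genes). DESeq2 called 4 (38.5%). Between shRNA2 and shRNA3 (4; 6 unadjusted) it was 0 at 0.01, 1 by library totals (3.38% of all genes), 2 with no filter (2.72%), 0 with only those groups (0 of 15116 genes) and 0 without those libraries (1.28%). DESeq2 called 6 (21.6%). With each of the 12 libraries left out in turn the counts ranged from 4 to 8, 2 to 8 and 7 to 9 for shRNA1, shRNA2 and shRNA3 against NC, 6 to 8 for their mean, and 0 to 4, 0 to 7 and 0 to 8 between shRNA1 and shRNA2, shRNA1 and shRNA3, and shRNA2 and shRNA3. All of the highest counts came without shRNA3 library 3, where 73.1%, 70.2%, 73.1%, 74.2%, 39.7%, 63.4% and 59.2% of all genes were called in the same order. The call of MCL1 for the mean of the hairpins was lost without any 1 NC library (adjusted p 0.0574 to 0.0608).

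Scaling by library totals moved the median of all genes by -0.08, -0.13 and -0.32 for shRNA1, shRNA2 and shRNA3 against NC, and the higher share of calls for shRNA3 from 48.9% to 35.1%. Replicate numbers are shared across groups, but deviations of same-numbered libraries correlated at -0.0107 on average (from -0.0963 to 0.0968, 18 pairs). Only 3 of 12 libraries correlated best with their own number. This gave no sign that the numbers pair the libraries, but with 3 libraries a group it cannot exclude pairing. A replicate block gave 0, 1 and 0 called members between shRNA1 and shRNA2, shRNA1 and shRNA3, and shRNA2 and shRNA3, against 1, 3 and 4 without it. The calls over all genes fell as well, to 8.54%, 25.4% and 2.16% from 12.3%, 30% and 8.34%. With the block, edgeR gave 2 members between shRNA1 and shRNA2 and 6 between shRNA2 and shRNA3 at an unadjusted p under 0.05. The share of all genes at that threshold is not given here.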
